A study of Mus musculus with 72 samples.

Results

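The libraries described here are 18 of the 72 liver libraries of the series: 9 from female B6C3F1 mice that drank tertiary butyl alcohol (TBA) at 10 mg/mL for 14 d and 9 from control mice that drank 0 mg/mL for the same time. They were chosen by their labels for dose and duration, and each of the 18 held more than 100000 counts, the lower limit set for a library. B6C3F1 is a hybrid mouse strain used widely in toxicity studies. The labels name no engineered allele, and all animals in both groups were 9-11 weeks of age at use, were housed singly and received no agent other than TBA in the water. Livers were fixed in formalin and embedded in paraffin, and RNA was read by TempO-Seq in material scraped from unstained sections. TempO-Seq counts pairs of short detector oligos that are ligated when they lie side by side on a chosen transcript, so each feature is a probe, named by a gene symbol and a number. The table held 30146 probes for 21400 symbols, of which 17050 probes for 11784 symbols passed the filter on low counts. By its title the series was made to ask if thyroid tumours of dosed females could follow from an action against the thyroid, and 10 mg/mL was its lowest dose. The question of this comparison is therefore which liver transcripts, among them enzymes that dispose of thyroid hormone, differed from control at the lowest dose and shorter time.

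The liver clears foreign small molecules through enzymes whose genes are switched on by nuclear receptors. CAR (Nr1i3) and PXR (Nr1i2) act on genes of cytochromes P450, conjugating enzymes and carriers, with Cyp2b10 the best known target of CAR in mouse liver, while PPARA acts on genes of fatty acid oxidation, among them the Cyp4a genes. Glucuronosyltransferases (Ugt) and sulfotransferases (Sult) conjugate thyroid hormone, the carriers of the Slco and Abcc families move hormone and conjugates in and out of the hepatocyte, and Dio1 deiodinates the hormone.

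The control libraries held 10.7 ± 1.19 M (mega) counts and the dosed libraries 10.2 ± 0.835 M (SD, n = 9 each), which did not differ by a two-sided exact permutation test (p = 0.386). The TMM factor, which corrects for composition, was 0.897 ± 0.0336 in controls and 0.932 ± 0.130 in dosed animals (n = 9 each; two-sided exact permutation p = 0.614). The 20 most abundant probes took 22.1 ± 0.987% of the counts in controls and 20.2 ± 2.47% in dosed animals (n = 9 each; two-sided exact permutation p = 0.0238), and without control replicate 2 or control replicate 4 the exact permutation p was 0.0535 or 0.0536. Dosed replicate 2 stood apart from the other 17 libraries, with a TMM factor of 1.26, 14.4% of its counts in those 20 probes and a median Spearman correlation of 0.921 with its group, against 0.945 to 0.963 for the others. Of 12 hepatocyte markers, all 12 were measured in both groups, with a summed level of 57047 to 77661 CPM (counts scaled to a library of fixed size, with TMM) in controls and 33249 to 71099 CPM in dosed animals. The labelled tissue was thus borne out by its defining genes, and none of the 12 differed at an unadjusted p under 0.05. Replicates are separate animals, 1 library each, and their numbers follow only the order of listing. In bulk tissue such as this, fewer cells of a type and less RNA per cell cannot be told apart.

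No probe passed the test of 10 mg/mL against control. In edgeR's quasi-likelihood test with Benjamini-Hochberg adjustment at 0.05 over the 17050 probes, 0 were higher and 0 were lower (0% and 0% of probes), and the smallest adjusted p was 0.0759. Without adjustment, 449 probes were higher (2.63%) and 287 lower (1.68%) at p under 0.05, 4.32% in either direction, 53% of the log2 fold changes lay above 0, and their median over all probes was 0.02. DESeq2 called 12 probes higher and limma called 7, and each called 0 lower. Among the 12 was a Dmbt1 probe with an extreme fitted log2 fold change of 20.4 (DESeq2 adjusted p = 0.00489), which limma did not call. A two-sided exact permutation test of every probe called 0 after adjustment (smallest adjusted p = 0.117, with 6 probes at 4.11e-05, the smallest p that 9 against 9 allows) and 1333 at an unadjusted p under 0.05. All 8 probes with an edgeR adjusted p under 0.1 were higher in dosed animals, and 6 of them belong to cytochrome P450 genes, as the plot of all probes shows.

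**Figure D1:**
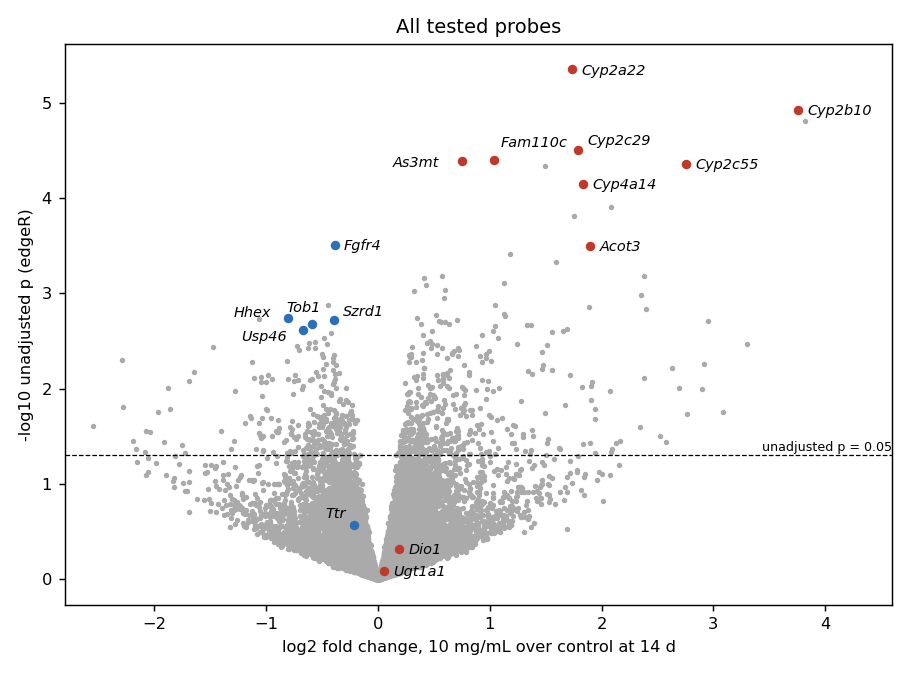
Each point is 1 of the 17050 tested probes, with its log2 fold change at 10 mg/mL over control on the horizontal axis and the negative log10 of its unadjusted edgeR p on the vertical axis. Named genes are drawn in red where higher and blue where lower, and Cyp2a22 and Cyp2b10 lie at the top although no probe passed adjustment.

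The gene with the largest difference among the leading genes was Cyp2b10, a cytochrome P450 of drug metabolism. Cyp2b10 was measured at 31.6, 54.6 and 101 CPM (lowest, median and highest) in the 9 controls and at 232, 296 and 2751 CPM in the 9 dosed animals. Every dosed library lay above every control library, and dosed replicates 2, 3 and 7 lay far above the other 6, at 2751, 2385 and 977 CPM. The log2 fold change was 3.76 ± 0.79 (SE; 95% interval 2.18 to 5.34), a fitted 13.5-fold, and the edgeR adjusted p was 0.0878. A second Cyp2b10 probe gave 3.82 with the same adjusted p and the same separation of the groups. Without dosed replicate 2, 3 or 7 the log2 fold change was 3.29, 3.38 and 3.71. Cyp2b10 shares much of its sequence with other Cyp2b genes, and without probe sequences the part of reads from a close copy was not tested. Cyp2b9 and Cyp2b13, which have probes of their own, had log2 fold changes of 0.17 and 0.31.

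Cyp2c29, an abundant liver P450 that CAR also acts on, was at 1081, 1229 and 1806 CPM in controls and at 2637, 3479 and 10505 CPM in dosed animals. The groups did not overlap, and dosed replicate 7 was the highest. Its log2 fold change was 1.79 ± 0.40 (SE; 95% interval 0.99 to 2.59), with an edgeR adjusted p of 0.0978. The other Cyp2c29 probes gave 1.76, again with all 9 dosed libraries above all controls, and 2.08, with 8 of 9 above. In all, 4 of 17050 probes (0.0235%) had every dosed library above every control, and these were the 2 Cyp2b10 probes and 2 of the 3 Cyp2c29 probes. At least 7 of the 9 dosed libraries were above all controls for 40 probes (0.235%).

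The 250 bases before the start of Cyp2b10 and Cyp2c29 are shown because these were the genes with no overlap upwards. They are RefSeq sequences on GRCm38.p6, both from the plus strand, at chr7:25897408-25897657 for Cyp2b10 and chr19:39286835-39287084 for Cyp2c29. Capitals mark the nuclear receptor half-sites searched, AGGTCA and AGTTCA on both strands, which do not overlap each other here.
Cyp2b10: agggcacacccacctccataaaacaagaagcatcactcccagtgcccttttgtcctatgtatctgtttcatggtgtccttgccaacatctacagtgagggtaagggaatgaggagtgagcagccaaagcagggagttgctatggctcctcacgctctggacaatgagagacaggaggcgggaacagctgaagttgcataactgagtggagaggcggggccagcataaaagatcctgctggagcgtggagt
Cyp2c29: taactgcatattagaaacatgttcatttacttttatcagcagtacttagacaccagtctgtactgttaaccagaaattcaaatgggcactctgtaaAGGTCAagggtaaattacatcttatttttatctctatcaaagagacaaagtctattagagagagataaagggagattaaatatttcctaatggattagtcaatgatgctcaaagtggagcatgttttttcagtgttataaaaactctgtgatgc
Cyp2c29 had 1 match, an AGGTCA beginning 154 bases before the start, and Cyp2b10 had 0. Only exact matches within these 250 bases were searched, so sites further away or of another sequence were not tested. Of 32851 windows of 250 bases before a gene start, 14% held AGGTCA, 11.8% held AGTTCA and 24.2% held either, so a match is common. Of 6 P450 genes looked up 4 had an entry, without Cyp4a10 and Cyp4a14, and the windows of Cyp2c55 and Cyp2a22 held 0 matches.

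Cyp2c55, another P450 of the CAR and PXR response, was at 3.75, 7.48 and 11.5 CPM in controls and at 6.65, 38.2 and 195 CPM in dosed animals. Of the 9 dosed libraries 8 lay above all controls, and the exception was dosed replicate 2 at 6.65 CPM, the library with the highest Cyp2b10. The log2 fold change was 2.76 ± 0.63 (SE; edgeR adjusted p = 0.0978). Cyp2c55 was chosen for description after its values had been seen. Cyp2a22, a P450 of the Cyp2a family, had the smallest adjusted p of all probes. Its level was 4.69, 6.09 and 15.7 CPM in controls and 10.1, 18.5 and 86.3 CPM in dosed animals, with 6 of 9 dosed libraries above all controls and dosed replicate 7 the highest. Cyp2a22 had a log2 fold change of 1.74 ± 0.35 (SE; 95% interval 1.05 to 2.43; edgeR adjusted p = 0.0759), and 1.26 without dosed replicate 7.

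**Figure D2:**
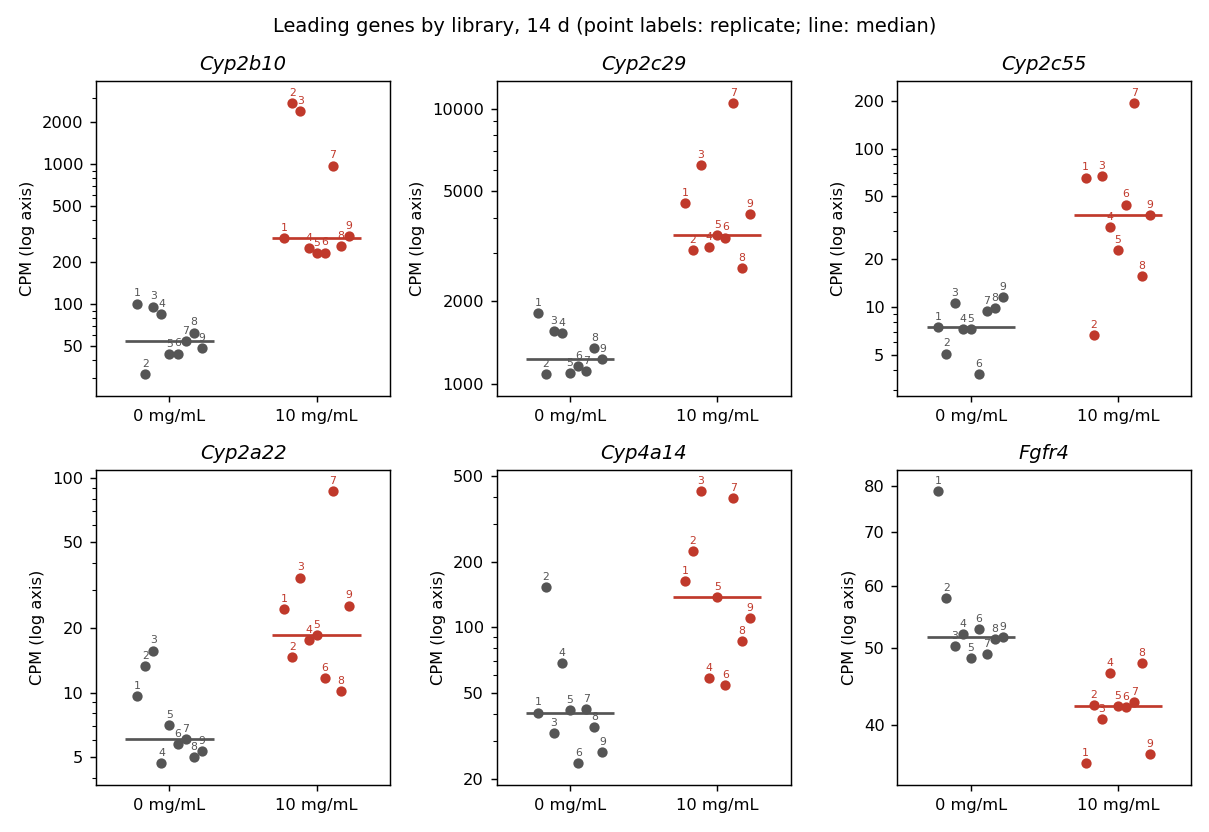
Level of 6 genes in each of the 9 control and 9 dosed libraries at 14 d, in CPM on a log axis, with replicate numbers beside the points and the group median as a line. Cyp2b10 and Cyp2c29 do not overlap upwards and Fgfr4 does not overlap downwards, and dosed replicates 2, 3 and 7 spread widely within the dosed group.

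Whether these P450 genes were called depended on the fit. Over 13 other tools, filters, scalings or sample sets, leaving aside single left-out libraries, Cyp2a22 and Cyp2b10 were each called higher in 6, Cyp2c29 in 5, Cyp2c55 in 3 and Cyp4a14 in 2, with log2 fold changes of 1.51 to 1.76, 2.66 to 3.90, 1.54 to 1.88, 2.32 to 2.99 and 1.48 to 1.90. Fam110c and As3mt, described further on, were called in 3 and in 1. Over the 18 fits that left out 1 library, Cyp2a22 was called in 5 (without control replicate 2 or 3 or dosed replicate 2, 6 or 8) and Cyp2b10, Fam110c and As3mt in 1 (without dosed replicate 8), while Cyp2c29 and Cyp2c55 were called in 0. Every one of these values was above 0.

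The wider list of CAR and PXR targets includes Cyp2b10, Cyp2c29 and Cyp2c55, which are among its higher members. Its counts are thus not separate from the values above. Of 36 members tested, 0 passed adjustment, 10 were higher and 0 lower at an unadjusted p under 0.05 (27.8% and 0%, against 2.63% and 1.68% of all probes), and the median log2 fold change was 0.34, against 0.02 for all probes. Por, the reductase that passes electrons to microsomal P450s, was at 24.2, 41.2 and 52.0 CPM in controls and at 32.5, 57.7 and 180 CPM in dosed animals. In 5 dosed animals Por was above all controls, with replicates 2 and 3 the highest, and the log2 fold change was 1.00 ± 0.33 (SE; edgeR adjusted p = 0.828). The other members in this count were Cyp2c50 (log2 fold change 0.76), Cyp2c37 (0.64), the carboxylesterase gene Ces2c (0.80), the stress gene Gadd45b (1.47), the uptake carrier gene Slco1a4 (0.96) and the export pump gene Abcc2 (0.24). Without probe sequences, the part of reads shared between the Cyp2c genes was not tested. Cyp3a11, the usual PXR target, was at 478, 654 and 811 CPM in controls and at 518, 799 and 1431 CPM in dosed animals, and 4 dosed libraries lay above all controls. Its log2 fold change was 0.38 ± 0.29 (SE; 95% interval -0.20 to 0.96; edgeR adjusted p = 0.999), and 0.25 without dosed replicate 7. Without dosed replicate 7 the list had 7 higher and 0 lower, and without dosed replicate 2 it had 10 and 0. The first of these falls in a fit where 1.75% of all probes were higher. That share was 2.63% with all libraries, so counts without 1 library do not stand against the same background.

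Targets of PPARA, most of them enzymes of fatty acid oxidation, had 11 members higher and 1 lower of 35 at an unadjusted p under 0.05. These were 31.4% and 2.86% of the list, against 2.63% and 1.68% of all probes. Of the list 0 passed adjustment, and its median log2 fold change was 0.19. Cyp4a14, a fatty acid omega-hydroxylase, was at 23.6, 40.4 and 153 CPM in controls and at 54.3, 138 and 423 CPM in dosed animals. The groups overlapped, with control replicate 2 the highest control and 4 dosed libraries above it. The log2 fold change was 1.84 ± 0.43 (SE; edgeR adjusted p = 0.133), and without control replicate 2 it was 2.24 with an adjusted p of 0.0188. Cyp4a10, its close relative, was at 81.5, 105 and 370 CPM in controls, again highest in control replicate 2, and at 189, 304 and 660 CPM in dosed animals. Its more abundant probe gave a log2 fold change of 1.12 (edgeR adjusted p = 0.691) and its other probe 1.49 (0.0978). Cyp4a genes are near copies of each other, so their counts may be shared. Acot3, an acyl-CoA thioesterase of peroxisomes, was at 7.95, 31.5 and 64.5 CPM in controls and at 28.6, 54.3 and 484 CPM in dosed animals. Dosed replicate 7 alone was above 138 CPM, and the log2 fold change of 1.90 (edgeR adjusted p = 0.412) was 1.13 without it. The other higher members were Cyp4a31 (log2 fold change 1.05), Acot1 (1.24), Acaa1b (0.87), the fatty acid uptake gene Cd36 (0.70), Acaa1a (0.66), Ehhadh (0.63), Aldh3a2 (0.39, or 0.20 without dosed replicate 7) and Eci1 (0.27), and Acot4 was lower (-1.02). Without dosed replicate 7 the count was 5 higher and 1 lower. Cyp4a10 and Acot3 were chosen for description after their values had been seen.

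Fam110c and As3mt completed the genes with the smallest p upwards. Fam110c was at 11.8, 14.7 and 22.8 CPM in controls and at 13.4, 32.6 and 45.9 CPM in dosed animals. In 8 dosed animals it was above all controls, and the log2 fold change was 1.04 ± 0.24 (SE; edgeR adjusted p = 0.0978). As3mt, which methylates arsenic, was at 103, 109 and 181 CPM in controls and at 123, 157 and 380 CPM in dosed animals. Of these 4 lay above all controls, and the log2 fold change was 0.75 ± 0.17 (SE; edgeR adjusted p = 0.0978). Gadd45a, a stress-induced gene chosen after its values had been seen, was at 5.36, 16.3 and 52.2 CPM in controls and at 16.5, 22.3 and 89.6 CPM in dosed animals. Only 2 dosed libraries were above all controls, and the log2 fold changes of its 3 probes were 0.93, 1.18 and 1.03 (edgeR adjusted p 0.828, 0.465 and 0.999). The first of these was 0.61 without dosed replicate 7.

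Among genes with lower values was Fgfr4, the hepatocyte receptor for the gut hormone that restrains bile acid synthesis, at 48.6, 51.7 and 78.8 CPM in controls and at 35.9, 42.3 and 47.9 CPM in dosed animals. All 9 dosed libraries lay below all 9 controls. For Fgfr4 the log2 fold change was -0.38 ± 0.10 (SE; 95% interval -0.59 to -0.18), with an edgeR adjusted p of 0.412. Besides Fgfr4, Hnrnpa0, an RNA-binding protein gene, had every dosed library below every control (2 probes in all, 0.0117%), with a log2 fold change of -0.25 (edgeR adjusted p = 0.999). It was named after its values had been seen. Hhex, a homeobox transcription factor gene of liver, was at 55.4, 88.1 and 218 CPM in controls and at 29.2, 50.7 and 111 CPM in dosed animals. Hhex was below all controls in 5 dosed animals, and the log2 fold change was -0.80 ± 0.25 (SE; edgeR adjusted p = 0.814). Szrd1, Tob1, an antiproliferative gene, and Usp46, a deubiquitinase gene, had log2 fold changes of -0.39, -0.59 and -0.67, with 7, 5 and 8 dosed libraries below all controls. At least 7 of the 9 dosed libraries were below all controls for 47 probes (0.276%). The less abundant Usp46 probes overlapped between the groups. They were at 1.44 to 5.47 and 0.965 to 4.51 CPM in controls and at 2.46 to 4.48 and 0.881 to 2.99 CPM in dosed animals. For Tob1 the log2 fold change was -0.29 without control replicate 1, its highest library. None of these genes was called lower under any of the 13 other settings or the 18 fits without 1 library.

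No glucuronosyltransferase or sulfotransferase gene passed adjustment, but for several the interval was too wide to call the gene close to control. Ugt1a1, which glucuronidates thyroxine and bilirubin, was at 2339, 2736 and 3284 CPM in controls and at 1702, 2987 and 3876 CPM in dosed animals. The control values lay within the dosed range. The log2 fold change was 0.06 ± 0.24 (SE; edgeR adjusted p = 0.999), and its 95% interval of -0.43 to 0.54 bounds what this comparison could show. Ugt1a6a had a log2 fold change of 0.00 (95% interval -0.78 to 0.78), Ugt2b34 of 0.23 (-0.15 to 0.61), Ugt2b35 of 0.26 (-0.04 to 0.56), Ugt2b1 of -0.33 (-0.83 to 0.16; -0.20 without dosed replicate 2) and the low-count Ugt1a9 of 0.90 (-0.27 to 2.08). The median log2 fold change of 17 glucuronosyltransferase genes was 0.13. At an unadjusted p under 0.05, 1 was higher and 0 lower (5.88% and 0%, against 2.63% and 1.68% of all probes). That member was Ugt1a8, at 1.62, 2.49 and 7.93 CPM in controls and at 3.58, 7.60 and 27.3 CPM in dosed animals, with a log2 fold change of 1.37 (edgeR adjusted p = 0.814). The Ugt1a genes share their last exons, so a probe in the shared part would count several of them.

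The median log2 fold change of 13 sulfotransferase genes was 0.52, with 10 of 13 above 0. At an unadjusted p under 0.05, 1 was higher and 0 lower (7.69% and 0%, against 2.63% and 1.68% of all probes). The member was Sult1e1, the oestrogen sulfotransferase gene, at 0, 0 and 2.28 CPM in controls and at 0, 1.33 and 30.7 CPM in dosed animals, which overlapped. Its log2 fold change of 3.08 (95% interval 0.56 to 5.61; edgeR adjusted p = 0.999) was 1.69 without dosed replicate 2, when 0 members were higher, and without control replicate 3 the list had 4 higher. Sult2a1, which sulfates steroids and bile acids, was at 1.91, 42.9 and 232 CPM in controls and at 66.9, 95.02 and 394 CPM in dosed animals. The controls spread so widely that only 2 dosed libraries were above all of them, and the log2 fold change was 1.24 (95% interval -0.06 to 2.53; edgeR adjusted p = 0.999). Sult1a1 and Sult1d1 had log2 fold changes of 0.30 (95% interval -0.03 to 0.63) and 0.52 (-0.15 to 1.19), and Sult1d1 had 0.29 without dosed replicate 2.

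The deiodinase gene Dio1 was at 114, 196 and 222 CPM in controls and at 89.8, 225 and 334 CPM in dosed animals. The dosed range enclosed the control range, and the log2 fold change was 0.19 (95% interval -0.34 to 0.72; edgeR adjusted p = 0.999). Its 3 other probes gave -0.05, 0.16 and 0.12. Among 16 genes of hormone carriage, transport and deiodination, Dio1 among them, the median log2 fold change was 0.03. Of these 3 were higher and 0 lower at an unadjusted p under 0.05 (18.8% and 0%, against 2.63% and 1.68% of all probes). The count was 1 without dosed replicate 3 and 2 to 4 without any other single library. Slco1a4, an uptake carrier gene, was at 4.25, 5.27 and 9.32 CPM in controls and at 6.91, 9.91 and 21.9 CPM in dosed animals. Of the dosed libraries 6 lay above all controls, and the log2 fold change was 0.96 ± 0.33 (SE; edgeR adjusted p = 0.828). Its second probe gave 0.59. Abcc2 was the second of the 3, and Serpina7, the gene of thyroxine-binding globulin, was the third. Serpina7 was at 18.6, 26.7 and 70.9 CPM in controls and at 16.9, 26.3 and 707 CPM in dosed animals. The medians were alike, but dosed replicates 2, 3 and 7 were above all controls, at 97.0, 707 and 120 CPM. These were also the libraries with the highest Cyp2b10. The second Serpina7 probe was at 9.76, 48.4 and 10.9 CPM in them and at most 7.10 CPM in controls. The log2 fold change of 1.82 was 0.44 without dosed replicate 3.

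The transthyretin gene Ttr, which encodes another carrier of thyroxine in blood, had a log2 fold change of -0.21 (95% interval -0.59 to 0.17). Slco1b2, Slco1a1 and Abcc3, genes of uptake carriers and of an export pump, had values of 0.11, -0.38 and 0.28, and all these intervals included 0. For Slco1a1 the value was -0.21 without dosed replicate 2. The lowest dosed library was replicate 2 for Slco1a1 (0.579 CPM) and Slco1b2 (61.4 CPM). Of 23 genes known to respond to thyroid hormone in liver, 2 were higher and 1 lower at an unadjusted p under 0.05. These were 8.70% and 4.35% of the list, against 2.63% and 1.68% of all probes. The list had a median log2 fold change of 0.01. Thrsp, a thyroid-responsive gene of lipid synthesis, was at 1.34, 2.58 and 6.27 CPM in controls and at 1.87, 6.64 and 47.0 CPM in dosed animals. In 5 dosed animals it was above all controls, and the log2 fold change of 1.69 (edgeR adjusted p = 0.828) was 0.85 without dosed replicate 7, the highest. G6pc, which releases glucose from the hepatocyte, was lower at -0.81 (edgeR adjusted p = 0.883), and Idh3a was the other higher member. Without dosed replicate 7 the list had 0 higher and 1 lower, and without any other single library 1 to 3 higher.

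**Figure D3:**
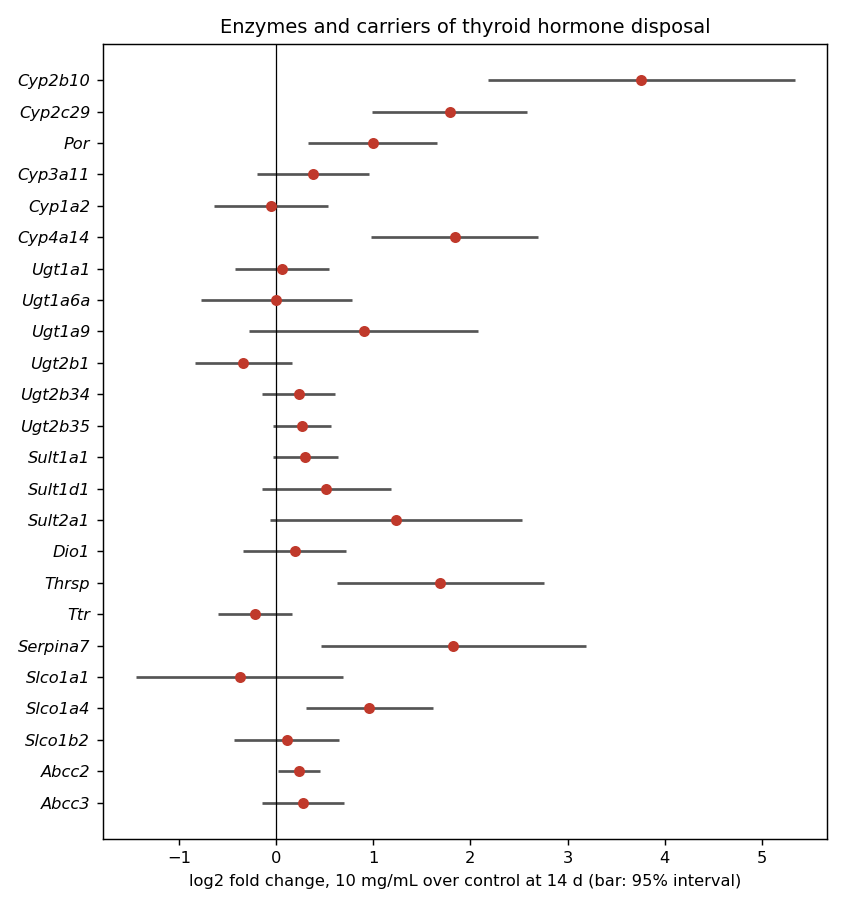
Log2 fold change of 10 mg/mL over control at 14 d (points) with its 95% interval (bars) for 24 genes of drug metabolism and of thyroid hormone conjugation, deiodination and transport. The intervals of Cyp2b10, Cyp2c29, Cyp4a14, Por, Thrsp, Serpina7, Slco1a4 and Abcc2 lie above 0 before adjustment, and that of Ugt1a1 runs from -0.43 to 0.54.

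The values for lipid synthesis rested on 1 animal, dosed replicate 7. Of 25 genes of fatty acid synthesis, 5 were higher (Thrsp, Acacb, Elovl6, Gpam and Pnpla3) and 0 lower at an unadjusted p under 0.05. These were 20% and 0%, against 2.63% and 1.68% of all probes. The list had a median log2 fold change of 0.24, and without dosed replicate 7 its count was 0 and 0. Without control replicate 1 or 4 it was 3 and 0. Of 25 genes of cholesterol synthesis and uptake, 2 were higher and 0 lower (8% and 0%), with a median of 0.25 that became -0.01 without dosed replicate 7, when the count was again 0 and 0. Lss, an enzyme of cholesterol synthesis, was at 29.6, 51.0 and 63.8 CPM in controls and at 16.8, 59.9 and 425 CPM in dosed animals. Dosed replicate 7 held the highest value and the other dosed libraries reached at most 82.2 CPM, and the log2 fold change of 0.97 was 0.14 without it. That library was also the highest of the dosed group for Cyp2c29, Cyp2c55, Cyp2a22, Acot3 and Thrsp.

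Bile acid genes, with a median of 0.02, had 3 higher and 3 lower of 25 at an unadjusted p under 0.05. This was 12% each, against 2.63% and 1.68% of all probes. The higher members were Abcc4, an export pump gene (log2 fold change 2.36, 0 to 1.40 CPM in controls and 0.102 to 5.21 CPM in dosed animals), Akr1d1 (0.34) and Abcc2. The lower were Fgfr4, Hsd3b7 (-0.38) and Cyp7b1 (-0.72), both enzymes of bile acid synthesis. Genes of alcohol and aldehyde oxidation had 1 higher and 0 lower of 19 (5.26% and 0%), Aldh3a2, with a median of 0.01. NRF2 targets, which defend against oxidants, had 2 higher (Abcc4 and Gstm4) and 2 lower (Gclc and Gstm2) of 28 (7.14% each). The 2 lower became 0 without dosed replicate 2, 3 or 7 or control replicate 4 or 7.

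Genes that male liver expresses more than female liver lay mostly below control in these female mice. Of 20, 0 were higher and 6 lower at an unadjusted p under 0.05 (0% and 30%, against 2.63% and 1.68% of all probes). The median log2 fold change of this list was -0.32. Mup3, a major urinary protein gene, was at 2861, 4317 and 5812 CPM in controls and at 762, 2777 and 3987 CPM in dosed animals. Of the dosed libraries 5 lay below all controls, with dosed replicate 2 the lowest. Mup3 had a log2 fold change of -0.72 ± 0.24 (SE; edgeR adjusted p = 0.828), or -0.60 without dosed replicate 2, where the list had 4 lower. The count was 3 without control replicate 4. The other members in this count were C6 (-0.61) and C8a (-0.49) of complement, Slc22a28 (-0.99), Cyp7b1 (-0.72) and Cspg5 (-2.03). Of 29 genes that female liver expresses more, 5 were higher and 0 lower (17.2% and 0%), with a median of 0.19: Cyp4a14, Acot3, Sult1e1, the steroid 17-hydroxylase gene Cyp17a1 (1.14) and Trim24 (0.58). The first of these also stand in other lists, so the lists are not independent. Of 12 major urinary protein genes, 1 was lower and 0 higher (8.33% and 0%), and 10 had values below 0. Mup genes are near copies of each other, and their probes may share reads.

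Circadian clock genes, with a median of 0.37, had 6 higher and 0 lower of 23 at an unadjusted p under 0.05. These were 26.1% and 0% of the list, against 2.63% and 1.68% of all probes. Per3, a period gene, was at 0.670, 2.18 and 7.70 CPM in controls and at 2.35, 7.78 and 28.3 CPM in dosed animals. Of the dosed libraries 5 lay above all controls, and the log2 fold change was 1.66 ± 0.53 (SE; edgeR adjusted p = 0.828). Wee1 (1.89), Bhlhe41 (2.38), Ciart (1.91) and Dbp (1.68) were also among the higher members. The labels give no hour of collection for the animals, so the part of sampling time in these values was not tested. The count was 7, 9 and 5 without dosed replicates 2, 3 and 7, and 4 without dosed replicate 5.

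All 13 heat shock genes measured had values above 0, with a median of 0.37. At an unadjusted p under 0.05, 2 were higher, Hspe1 (0.46) and Dnaja1 (0.39), and 0 lower. These were 15.4% and 0%, against 2.63% and 1.68% of all probes. Without dosed replicate 7 the count was 0 and 0. Immediate early genes, which answer to stimuli within minutes, had 0 higher and 4 lower of 14 (0% and 28.6%), Dusp1 (-0.96, or -0.44 without control replicate 1), Jun (-0.73), Ier2 (-0.49) and Jund (-0.25). Ier2 was at 140, 270 and 502 CPM in controls and at 163, 191 and 220 CPM in dosed animals, so the dosed group lay inside the control range. The count was 1 without control replicate 6 and 2 without control replicate 1 or 3 or dosed replicate 5 or 6.

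Interferon response genes had 0 higher and 5 lower of 25 at an unadjusted p under 0.05 (0% and 20%, against 2.63% and 1.68% of all probes). Their list had a median of -0.28 and 22 of 25 below 0. Mx1, an antiviral gene, was at 1.56, 2.00 and 3.86 CPM in controls and at 0.307, 0.511 and 1.70 CPM in dosed animals. Of the dosed libraries 7 lay below all controls, and the log2 fold change was -1.48 ± 0.49 (SE; edgeR adjusted p = 0.828). Rsad2 (-0.89), Ifit1 (-1.06), Isg15 (-0.63) and Oas1a (-0.54) were the others. Of 11 Kupffer cell markers, 0 were higher and 3 lower (0% and 27.3%), the complement genes C1qa (-0.45), C1qb (-0.34) and C1qc (-0.42). The summed Kupffer level was 235 to 313 CPM in controls and 104 to 284 CPM in dosed animals, and the part of these cells in the interferon values was not tested. Without dosed replicate 2 the Kupffer count was 0 higher and 0 lower, and the interferon count was 1 and 3. Without control replicate 1 or dosed replicate 7 the Kupffer count was 1 lower, and the interferon count ranged from 2 lower without control replicate 5 to 7 lower without dosed replicate 6.

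**Figure D4:**
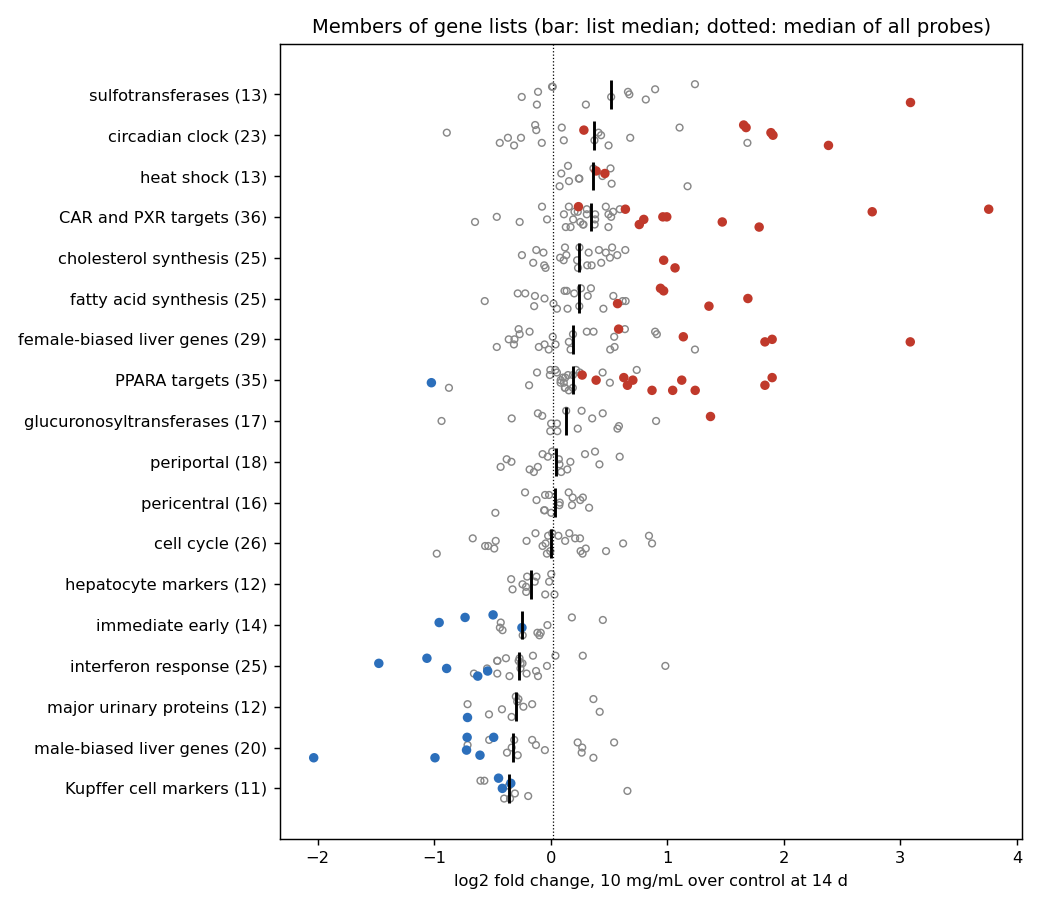
Log2 fold change at 10 mg/mL over control of each tested member of 18 gene lists, with the number of members in brackets. Filled points had an unadjusted p under 0.05 (red higher, blue lower), bars are list medians, the dotted line is the median of all probes, and CAR and PXR targets, PPARA targets and clock genes have 10, 11 and 6 filled points upwards.

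The remaining lists had at most 3 members in either direction at an unadjusted p under 0.05. Of all probes 2.63% were higher and 1.68% lower. Genes of pericentral hepatocytes (16) and of periportal hepatocytes (18) had 0 higher and 0 lower, with medians of 0.04 each. Cell cycle genes had 0 higher and 0 lower of 26 (median 0.00), subunits of oxidative phosphorylation 0 and 0 of 29 (0.07), and targets of the dioxin receptor 0 and 0 of 7 (0.11). Cyp1a2, the dioxin receptor target and pericentral P450, had a log2 fold change of -0.05 (95% interval -0.64 to 0.54) that turned to 0.10 without dosed replicate 2, its lowest library. Genes of the unfolded protein and integrated stress response had 0 higher and 1 lower of 25 (Chac1, 4%). Acute phase genes had 1 higher and 0 lower of 31 (Il1rn, 3.23%), and genes of growth hormone signalling 0 and 1 of 19 (Igfbp1, 5.26%). Genes of iron had 1 and 1 of 19 (Tfrc and Slc40a1, 5.26% each), and of urea and amino acids 0 and 2 of 31 (Glud1 and Uroc1, 6.45%). Genes of glucose had 2 and 1 of 26 (7.69% and 3.85%, Gbe1 among the higher, G6pc lower). Genes of p53 and stress had 2 and 1 of 17 (11.8% and 5.88%, Gadd45a and Gadd45b higher, Gadd45g lower). Ribosomal protein genes had 3 higher and 0 lower of 29 (10.3% and 0%), with small values (Rpl5, 0.28, and Rps23, 0.26, each with 7 dosed libraries above all controls). Single members in these lists could go with 1 library: without dosed replicate 3 the counts of the acute phase and iron lists were 0, and without dosed replicate 2 those of growth hormone signalling and of the unfolded protein list were 0.

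Markers of other cell types were mostly below 0, as were 10 of the 12 hepatocyte markers (median log2 fold change -0.17). Stellate cell and fibroblast markers had 2 lower of 12 at an unadjusted p under 0.05 (Ecm1 and Col14a1, 16.7%, against 1.68% of all probes). Their summed level was 409 to 623 CPM in controls and 259 to 464 CPM in dosed animals. Sinusoidal endothelial markers had 2 lower of 11 (Stab1 and Stab2, 18.2%), T or NK cell markers 1 of 6 (Ccl5, 16.7%) and monocyte or dendritic cell markers 1 of 6 (Ccr2, 16.7%). The endothelial count was 0 without dosed replicate 2, 3 or 7, the T or NK count 0 without dosed replicate 2 or 7, the monocyte or dendritic count 0 without dosed replicate 2 or 3, and the stellate count 1 without dosed replicate 2 or 3. The endothelial count was also 0 without control replicate 4, 7 or 9, the T or NK count without control replicate 2, 4 or 5 or dosed replicate 6, and the monocyte or dendritic count without control replicate 1, 6 or 9 or dosed replicate 6 or 8. Cholangiocyte, B or plasma cell, neutrophil, erythroid and adipocyte markers had 0 higher and 0 lower among 4, 6, 2, 3 and 2 tested. Of 2 pancreatic acinar markers tested, Cela2a was higher, with a summed level of at most 6.47 CPM in controls and 15.7 CPM in dosed animals.

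Few probes passed the test of 20 against 10 mg/mL, and a low count of calls does not bound how far these doses differed. Of all probes, 1 was higher and 1 lower at 20 than at 10 mg/mL (0.00587% each, edgeR adjusted p under 0.05). The lower was Mmp7, a matrix protease gene (log2 difference -6.36, adjusted p = 0.0172), which was at 62.3 CPM in dosed replicate 2 and at most 2.97 CPM in the other 10 mg/mL libraries, and without that library 0 probes passed. The higher was a probe of Btg2 (1.66, adjusted p = 0.0259), whose more abundant probe did not pass (0.71, adjusted p = 0.876). Cyp2b10 differed by -0.31 (adjusted p = 0.969), Cyp2c29 by 0.04 (0.994) and Cyp2a22 by 0.40 (0.907) in edgeR. The Cyp2b10 medians were 54.6, 296, 536 and 136 CPM at 0, 10, 20 and 40 mg/mL, and the ranges of the dosed groups overlapped.

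At 40 mg/mL 149 probes were higher and 247 lower than at 10 mg/mL (0.874% and 1.45%; n = 8 and 9, edgeR). Those lower at 40 mg/mL were led by major urinary protein genes, Mup16 (log2 difference -1.78, adjusted p = 0.000409), Mup20 (-1.93, 0.000425), Mup15 (-1.69, 0.000425) and Mup13 (-1.65, 0.00116), with the carboxylesterase gene Ces3b (-1.34, 0.000778). Against control these 5 genes had log2 fold changes of -0.23, 0.37, -0.29, -0.30 and -0.10 at 10 mg/mL, with intervals that included 0. Those higher were led by H2bc8, Map4k4, Birc5, Incenp and Cdk1, of which Birc5, Incenp and Cdk1 serve cell division, and 11 of 26 cell cycle genes passed, all higher. Ugt1a1 (-0.99, adjusted p = 0.0219), Ugt2b1 (-0.99, 0.0251), Ugt2b34 (-0.69, 0.0401), Abcc3 (-0.76, 0.0464) and Cyp1a2 (-1.39, 0.0099) were lower at 40 than at 10 mg/mL, while Cyp2b10 (0.34, 0.882), Cyp2c29 (-0.64, 0.454) and Cyp2a22 (0.24, 0.803) did not pass. These counts were not stable: with only the compared groups in the fit 1 probe passed and with the TMM factor as a covariate 2 did, against 396 here.

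**Figure D5:**
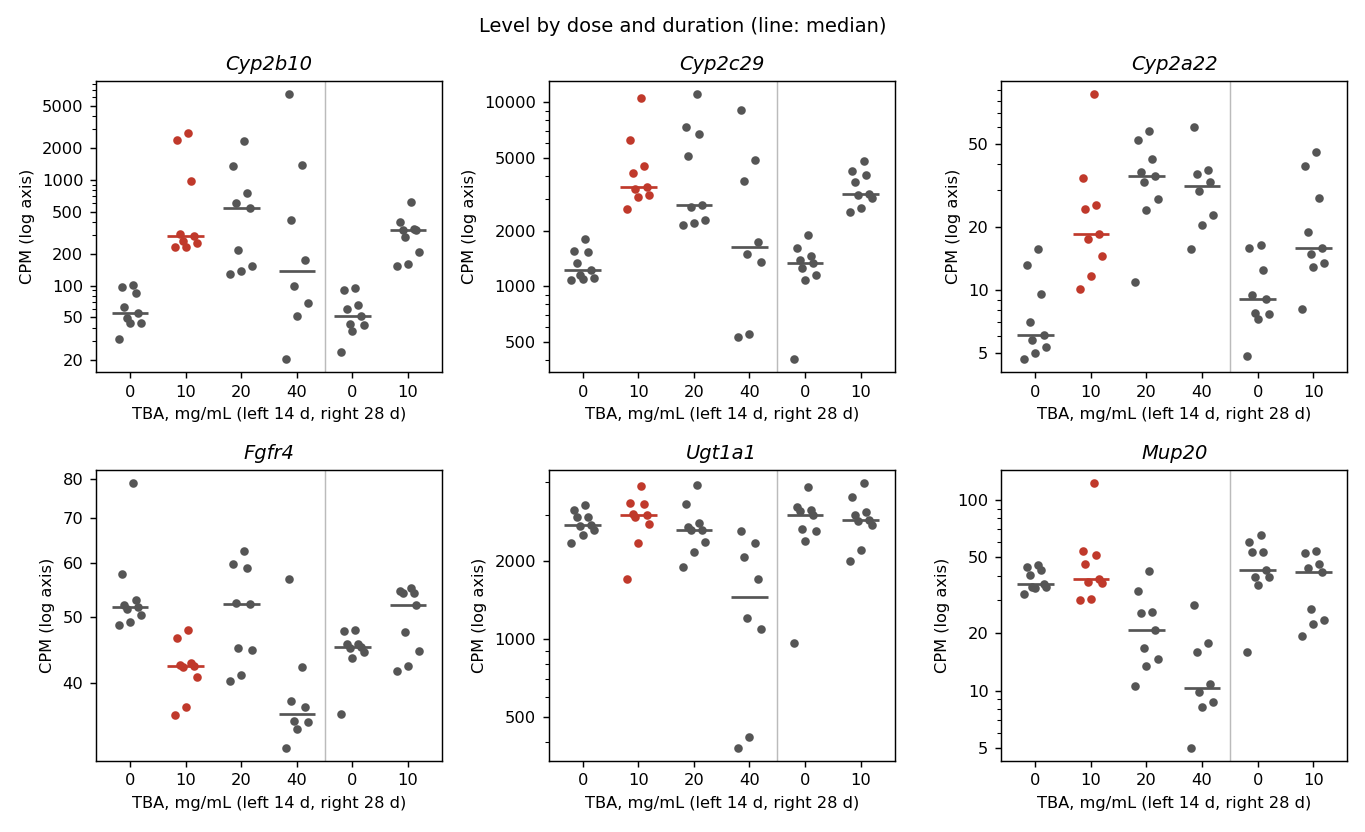
Level of 6 genes in CPM on a log axis for each library at 0, 10, 20 and 40 mg/mL after 14 d and at 0 and 10 mg/mL after 28 d, with group medians as lines and the 10 mg/mL group at 14 d in red. Cyp2b10 and Cyp2c29 lie above control at 10 mg/mL at both durations, while Ugt1a1 and Mup20 at 10 mg/mL overlap control and are lower at 40 mg/mL.

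The effect of 10 mg/mL did not pass a test of difference between 28 d and 14 d for any probe (0 of 17050, 0%, edgeR adjusted p under 0.05; 732 probes, 4.29%, at an unadjusted p under 0.05). At 28 d Cyp2b10 was at 56.5 ± 24.0 CPM in controls and at 315 ± 141 CPM at 10 mg/mL (SD, n = 9 each), beside 63.2 ± 25.0 and 855 ± 1003 CPM at 14 d. The dosed mean at 14 d was raised by the 3 high animals. Cyp2c29 was at 1296 ± 417 and 3478 ± 761 CPM at 28 d, beside 1323 ± 256 and 4570.4 ± 2471 CPM at 14 d. Cyp4a14 was at 98.9 ± 56.2 CPM in controls and 88.0 ± 43.6 CPM at 10 mg/mL at 28 d, beside 51.4 ± 40.3 and 184 ± 139 CPM at 14 d, and its log2 effect at 28 d minus that at 14 d was -2.01 (edgeR adjusted p = 0.9999). For Fgfr4 the levels were 44.5 ± 3.5 and 49.6 ± 5.6 CPM at 28 d and 54.8 ± 9.4 and 42.0 ± 3.9 CPM at 14 d, a difference of effects of 0.54 (edgeR adjusted p = 0.9999).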

How the data were processed

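TempO-Seq counts from 72 mouse liver libraries were used, 1 per animal and 9 per group of dose and duration. The values are whole-number counts per probe as deposited, neither scaled nor logged. Per the submitters' processing notes, bcl2fastq 2.20 and Bowtie were used upstream. The Bowtie version, genome build and counting tool are not given in the sources used here. The 1 library under 100000 counts (40 mg/mL, 14 d) was left out. The labels give no batch or pairing.

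Probes were tested as separate features in R 4.3.3 with edgeR 4.0.16 (filterByExpr, TMM, quasi-likelihood fit with robust estimation over 71 libraries and 8 groups, Benjamini-Hochberg at 0.05 over 17050 probes that hold 99.9% of counts). The common biological coefficient of variation was 0.402. Tests were first tried on simulated counts. Levels are CPM scaled by TMM. Single values were compared by exact permutation, for genes as log2 CPM after adding a prior of 2 counts. Alternatives used DESeq2 1.42.0, limma 3.58.1, sva 3.50.0, other filters, scalings and samples.

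The probe with the highest mean count represents a gene. Named were the 5 smallest p in each direction with a mean of at least 5 CPM, a list of 24 thyroid and enzyme genes, up to 2 members of each of 32 gene lists, and leading genes of the dose contrasts. Marker lists numbered 12. Cyp2c55, Cyp4a10, Acot3, Gadd45a, Hnrnpa0, Dmbt1 and the further list members named at an unadjusted p under 0.05 were added after their values were seen. The comparison, members and lists were chosen with earlier results of these data known. Counts of list members at an unadjusted p describe the lists and test nothing. They use only the representative probe of each gene, while the shares of all probes also take in less abundant probes of the same genes. Of 153 pairs among the 18 libraries 0 were identical (smallest chi-square per degree of freedom 8.01). Of 21400 symbols 21069 matched the reference gene names. The results of some genes are not reported here.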

Additional observations from a re-analysis of the deposited data

Results flagged for a closer look

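Among 140 groups of 9 libraries (the named genes and 3 library measures in controls and dosed animals), 14 had a library whose gap to its nearest neighbour, divided by the group's range (for genes on the log2 scale of CPM, for library measures on their own scale), exceeded Dixon's critical value at 95%. Chance flags about 1 in 20 groups.

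Dosed replicate 2 accounted for 5 of these. Its TMM factor was 1.26, and it was the lowest dosed library for Ugt2b1 (18.7 CPM, nearest 72.1), Slco1a1 (0.579 CPM, nearest 11.0), Slco1b2 (61.4 CPM, nearest 179) and Cyp1a2 (55.5 CPM, nearest 221). Dosed replicate 7 was the highest for Lss (425 CPM, nearest 82.2).

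Control replicate 1 accounted for 5 more, as the highest control for Fgfr4 (78.8 CPM, nearest 57.8), Tob1 (499 CPM, nearest 191), Ttr (6261 CPM, nearest 4977) and Uroc1 (193 CPM, nearest 126) and the lowest for Dio1 (114 CPM, nearest 177). Single controls were the highest for Fam110c (replicate 6, 22.8 CPM), Usp46 (replicate 2, 12.6 CPM) and Sult1d1 (replicate 3, 97.0 CPM).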

How the results depend on the processing

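Against 0 probes called higher at 10 mg/mL, 12 were called by DESeq2, 7 by limma, 6 without robust estimation, 3 with a filter at 5 CPM, 7 with only the compared groups, 8 with the TMM factor as a covariate and 2 with 2 surrogate variables. The other 6 settings called 0, each of the 13 called 0 lower, and leaving out each library gave 0 to 5 higher. The calls fell on 11 symbols. Of 2 alternatives chosen after seeing the data, the compared groups alone without dosed replicate 2 called 15 and the compared groups alone with probes summed per gene called 4. For 20 against 10 mg/mL, 2 probes passed, 4 by DESeq2, 0 by limma, 4 without robust estimation, 0 with only the compared groups, 5 with the covariate, 1 with summed probes and 0 to 3 without 1 library (0 without control replicate 9 and dosed replicate 2). For 40 against 10 mg/mL, 396 became 731 by DESeq2, 259 without a filter, 1 with only the compared groups, 2 with the covariate, 257 with surrogate variables, 89 with the failed library kept and 213 to 657 without 1 library (643 without control replicate 9 and dosed replicate 2). For the difference between durations limma called 2. The causes were not tested. Values near 0 turned: Ugt1a1 to -0.0505 with surrogate variables (-0.00807 to 0.139 without 1 library or without control replicate 9 and dosed replicate 2); Ugt1a6a to -0.00254 without the 20 most abundant probes in scaling, -0.0015 with the 5 CPM filter, -0.00508 with only the compared groups, -0.0515 with surrogate variables and -0.0311 in the compared groups without dosed replicate 2 (-0.118 to 0.109 without 1 library); Cyp1a2 to 0.0459 by limma, 0.0822 without control replicate 9 and dosed replicate 2, and 0.094 in the compared groups without dosed replicate 2 (-0.117 to 0.0951 without 1 library). The difference in TMM factor ranged from -0.00584 to 0.0467 without 1 library, and the lower share of the 20 most abundant probes from -2.17 to -1.15 points, no longer under 0.05 without control replicate 2 or 4. No paired analysis was possible because the labels give no replicate numbers shared between groups. Sult1e1, at a median of 0 CPM in controls, rests on few counts there.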
